A study of Mus musculus with 6 samples.

Results

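The EGF receptor (ErbB) family and its ligands were followed in mouse pancreas after loss of the acinar transcription factor Ptf1a. The set was defined by gene name as Egfr, Erbb2, Erbb3, Erbb4, Tgfa, Hbegf, Areg, Ereg, Btc and Egf, by a rule that names genes and sets no threshold on their values, although it was written with earlier results of these data known. Of these 10 genes, 5 were analysed, among 10245 genes in the table: the receptors Egfr, Erbb2 and Erbb3 and the ligands Egf and Tgfa. Erbb4, Hbegf, Areg, Ereg and Btc were not analysed here, and neither were the further ErbB ligands Epgn and Nrg1 to Nrg4. Each of the 5 measured genes was above 27.6 normalized counts, the smallest maximum of any gene in the table, in every library, so none was present only through the group in which it was high.

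RNA was sequenced from whole pancreata of adult mice, with 3 control and 3 Ptf1a conditional knockout (Ptf1a cKO) animals as separate libraries. Controls were Ptf1a(CreER/+) and Ptf1a cKO mice were Ptf1a(CreER/fl). The CreER allele is inserted into Ptf1a and makes no PTF1A, so controls carried a single working copy and the knockout removed that copy wherever the inducible Cre acted, which is in cells that express Ptf1a, the acinar cells. The study also describes a R26R EYFP reporter in its inducible-Cre mice. Both groups received tamoxifen, 3 doses of 0.25 mg/g, and tissue was taken at day 14. Controls were 4 months old and Ptf1a cKO mice 5 months, so age and genotype cannot be told apart. Each group held 1 male and 2 females. The comparison asks which genes differ once mature acinar cells lose Ptf1a.

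ErbB receptors are cell surface tyrosine kinases that pair when a ligand binds and then signal through the RAS-ERK, PI3K-AKT and phospholipase C pathways. EGFR binds EGF and TGF-alpha. ERBB2 binds no ligand itself and is the favoured partner of the others, whereas ERBB3 binds neuregulins, has little kinase activity of its own and carries many docking sites for PI3K. Ligands are made as membrane proteins and released by ADAM proteases. In the pancreas, TGF-alpha and EGFR signaling are classically tied to acinar-to-ductal conversion.

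Values are normalized read counts as the authors scaled them. Ptf1a itself was 566, 601 and 652 in control mice 1 to 3 and 19.8, 70.1 and 10.2 in Ptf1a cKO mice 1 to 3, a log2 fold change of -4.41 (limma, adjusted p = 3.29e-04), so each library matched its label and Ptf1a cKO 2 kept the highest remainder. The log2 fold changes given here were taken after adding a pseudocount of 3.41 normalized counts to each value, which understates the change of low genes, and a gene was called at a Benjamini-Hochberg adjusted p under 0.05 over all genes. By this rule 33.9% of all genes were called, 17.1% higher and 16.8% lower in Ptf1a cKO. In bulk tissue, fewer cells of a type and less RNA per cell cannot be told apart.

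Erbb2 and Erbb3 rose in Ptf1a cKO pancreas and Egf fell, while Egfr and Tgfa did not pass the threshold. The 3 called members of 5 stood beside the 33.9% called over all genes. All 5 had groups that did not overlap, where 50.8% of all genes did the same. With 3 mice against 3, the exact two-sided permutation test of a single gene cannot give a p below 0.10, and it gave 0.10 for each of the 5 members.

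**Figure D1:**
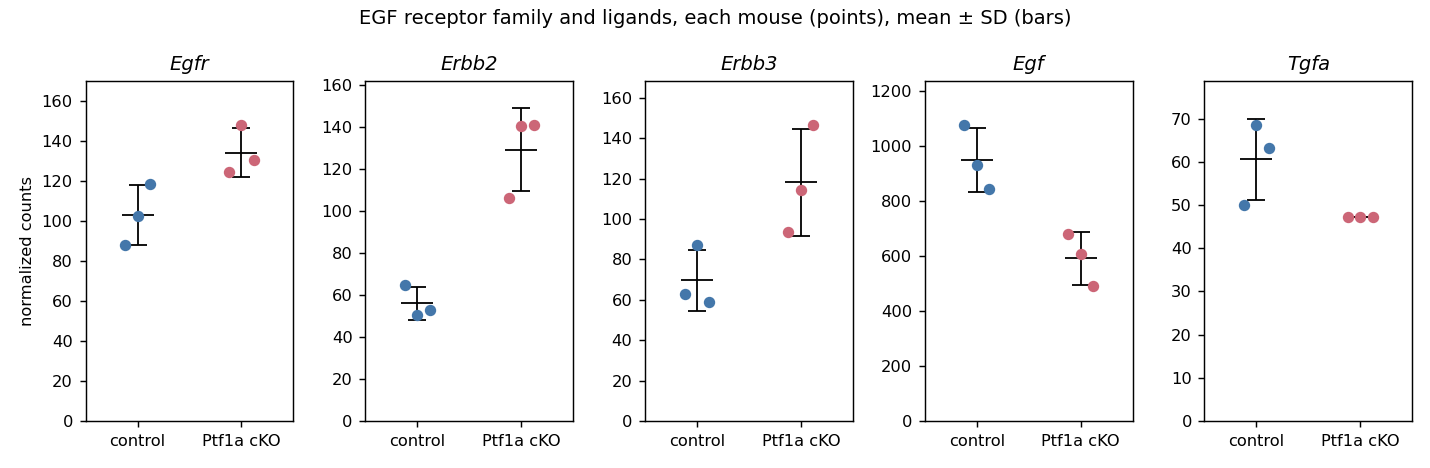
Normalized counts of the 5 measured members in each library, one panel per gene, with points for single mice and lines for the group mean ± SD. Erbb2 went from a mean of 55.9 in controls to 129 in Ptf1a cKO and Egf from 951 to 593, and the groups did not overlap in any of the panels.

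Erbb2 showed the largest difference of the members. It encodes the orphan co-receptor and lies at chr11:98412470-98437716 on the plus strand (GENCODE, GRCm38). Its level was 64.6, 50.3 and 52.9 normalized counts in control mice 1 to 3. In Ptf1a cKO mice 1 to 3 it was 106, 140 and 141. Every knockout library was well above the highest control, and Ptf1a cKO 2 and 3 were nearly equal. The group means were 55.9 ± 7.65 and 129 ± 19.8 (SD over 3 mice), a 2.31-fold ratio of means and a log2 fold change of 1.16 (SE 0.16), with an adjusted p of 9.77e-04 by limma. Over all genes, 6.89% were called higher with a ratio of means of at least 2. Leaving out any single library left the log2 fold change of Erbb2 between 1.09 and 1.29 and the call in place.

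Erbb3 rose less and with more spread. It encodes the neuregulin receptor with the PI3K docking sites and lies at chr10:128567523-128589652 on the minus strand. Controls 1 to 3 held 62.8, 86.9 and 59.1 normalized counts. Ptf1a cKO 1 to 3 held 93.4, 114 and 146. The groups were apart by a narrow margin, since control 2 and Ptf1a cKO 1 were close to each other. The means were 69.6 ± 15.1 and 118 ± 26.7 (SD over 3 mice), 1.70-fold apart, with a log2 fold change of 0.73 (SE 0.20) and an adjusted p of 0.0210 by limma. The call was lost without control 1 (adjusted p = 0.0734), without control 3 (0.0678) and without Ptf1a cKO 3 (0.0747), with log2 fold changes over all left-out libraries between 0.57 and 0.89.

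Egfr, the receptor for both measured ligands, was not called. It lies at chr11:16752203-16918158 on the plus strand. It measured 88.3, 102 and 118 normalized counts in control mice 1 to 3. The values were 124, 148 and 131 in Ptf1a cKO mice 1 to 3. The highest control and the lowest knockout nearly touched. The means were 103 ± 15.1 and 134 ± 12.2 (SD over 3 mice), with a log2 fold change of 0.38 (SE 0.14) and an adjusted p of 0.0673 by limma. Without control 3, the highest of its group, the adjusted p was 0.0354.

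Egf moved the other way. It encodes the precursor from which EGF is cut and lies at chr3:129677565-129755316 on the minus strand. Control mice 1 to 3 held 1076, 931 and 844 normalized counts. Ptf1a cKO mice 1 to 3 held 681, 606 and 491. Every knockout was below every control. The mean fell from 951 ± 117 to 593 ± 96.1 (SD over 3 mice), so that controls were 1.60-fold higher, with a log2 fold change of -0.68 (SE 0.15) and an adjusted p of 0.00837 by limma. This direction turned, to a log2 fold change of 0.81, when every library was given the same total, a scaling that also moved the median gene from 0.036 to 1.48. With equal totals that leave out the digestive enzymes it was -0.069 and not called. Set against the median gene, Egf stood at -0.72 as deposited and -0.67 with equal totals.

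Tgfa, a ligand of EGFR with a classical role in acinar-to-ductal conversion, lies at chr6:86195223-86275719 on the plus strand. It was 50.1, 68.4 and 63.1 normalized counts in control mice 1 to 3. In Ptf1a cKO mice 1 to 3 it was 47.3, 47.1 and 47.2. All knockout libraries were at nearly one level, just below the lowest control. The means were 60.5 ± 9.44 and 47.2 ± 0.0764 (SD over 3 mice), with a log2 fold change of -0.33 (SE 0.17) and an adjusted p of 0.159 by limma, so the difference was not called. With every library at the same total it was 1.08, and with equal totals that leave out the digestive enzymes 0.25, both turned; it was -0.36 and -0.40 relative to the median gene before and after.

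The start regions of Erbb2 and Egf, which differed most in opposite directions, are shown because the mice differ in a factor that binds DNA. PTF1 contacts an E-box together with a TC-box, and the letters CANNTG and TGGGAA, each on either strand, were searched from 250 bases before to 50 bases after the annotated start (RefSeq, GRCm38.p6, 4 of the 5 members matched). No overlap of the 2 motifs occurred in the members, since TGGGAA was in none of the 4 windows. Capitals mark a CANNTG match. The first window is chr11:98412234-98412533 on the plus strand and the second is chr3:129755273-129755572 on the minus strand, both written 5′ to 3′.
Erbb2: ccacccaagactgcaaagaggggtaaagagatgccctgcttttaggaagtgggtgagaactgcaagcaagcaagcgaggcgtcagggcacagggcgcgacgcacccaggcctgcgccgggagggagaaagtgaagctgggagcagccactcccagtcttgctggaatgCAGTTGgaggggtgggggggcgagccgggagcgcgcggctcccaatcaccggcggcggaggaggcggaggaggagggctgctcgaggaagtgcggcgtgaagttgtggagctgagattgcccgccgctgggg
Egf: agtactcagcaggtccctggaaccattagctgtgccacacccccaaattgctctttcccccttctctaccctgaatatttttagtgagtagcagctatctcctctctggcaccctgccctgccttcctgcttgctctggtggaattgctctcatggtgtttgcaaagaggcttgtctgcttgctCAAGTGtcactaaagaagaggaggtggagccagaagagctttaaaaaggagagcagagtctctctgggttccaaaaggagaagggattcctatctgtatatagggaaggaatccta
Erbb2, Egf and Tgfa held 1 CANNTG match each and Egfr held 0. Of 32851 start windows of the same length, 72.3% held CANNTG, 25.6% held TGGGAA and 19.0% held both. The matches are letters in a window and were not tested for binding.

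Relations among the receptors were compared within each library, where the scaling drops out. The log2 ratio of Erbb2 to Egfr was -0.45, -1.03 and -1.16 in control mice 1 to 3. It was -0.23, -0.077 and 0.11 in Ptf1a cKO mice 1 to 3. Each knockout ratio was above each control ratio, with control 1 nearest to the knockouts. The log2 ratio of Erbb3 to Erbb2 was -0.042, 0.79 and 0.16 in controls and -0.19, -0.29 and 0.057 in Ptf1a cKO mice, and that of Erbb3 to Egfr was -0.49, -0.24 and -1.002 against -0.41, -0.37 and 0.16. Both of these overlapped between the groups. The summed count of the 3 receptors was 216, 240 and 230 in controls and 324, 403 and 418 in Ptf1a cKO mice, again with no overlap. Unlike the ratios, this sum moves with the scaling of the library, and it is not adjusted for gene length. For the ligands, the log2 ratio of Egf to Tgfa was 4.43, 3.77 and 3.74 in controls against 3.85, 3.69 and 3.38 in Ptf1a cKO mice, and the groups overlapped.

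**Figure D2:**
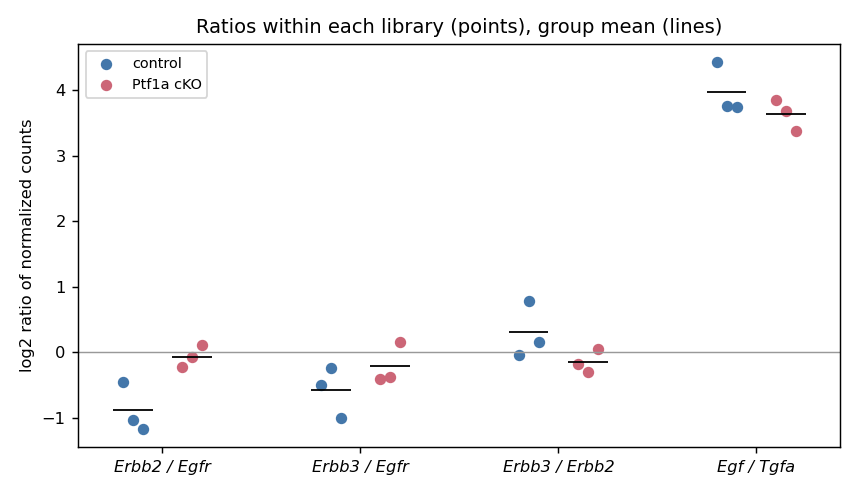
Log2 ratios between members within each library, with control and Ptf1a cKO mice as points. The Erbb2 to Egfr ratio is the one whose groups do not overlap, from -1.16 to -0.45 in controls and from -0.23 to 0.11 in Ptf1a cKO mice.

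Levels of different genes were compared per kilobase of merged exons (GENCODE). Egf was the most abundant member in controls, at 84.3 ± 10.4 normalized counts per kb (SD, n = 3). The other 4 followed at 11.6 ± 2.51 for Erbb3, 10.7 ± 1.47 for Erbb2, 9.33 ± 1.46 for Tgfa and 9.10 ± 1.33 for Egfr, and these 4 overlapped. In Ptf1a cKO mice the order per kb was Egf at 52.6 ± 8.52, Erbb2 at 24.8 ± 3.79, Erbb3 at 19.6 ± 4.43, Egfr at 11.9 ± 1.08 and Tgfa at 7.27 ± 0.0118. Erbb2 and Erbb3 overlapped there, whereas Egfr lay below both and Tgfa below Egfr. The order depends on the length used. Per kb of the longest coding transcript, control levels were 199.7 for Egf, 13.4 for Tgfa, 11.6 for Erbb3, 11.2 for Erbb2 and 10.1 for Egfr, which put Tgfa directly after Egf. The order in Ptf1a cKO mice was unchanged, with Egf at 124.5 and Tgfa at 10.4.

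Receptor tyrosine kinases outside the family gave the background for the receptors. Of 48 listed kinases 29 were in the table, 9 were called higher (31.0%, against 17.1% of all genes) and 4 lower (13.8%, against 16.8%), so that 44.8% were called against 33.9%, and their median log2 fold change was 0.034. The higher ones were Igf1r, Pdgfra, Kit, Csf1r, Ddr1, Ddr2, Axl, Ephb3 and Ltk, and the lower ones Insr, Ptk7, Epha7 and Ephb4. Some of the kinases are also in the cell type marker lists used below. Csf1r is a leukocyte marker there and Pdgfra a fibroblast and stellate marker. Pdgfrb of the latter list and the endothelial markers Kdr, Tek and Tie1 were not called. Among all 32 receptor kinases, Erbb2 ranked 4 by log2 fold change, after Ltk (1.80), Igf1r (1.54) and Ephb3 (1.30). Erbb3 ranked 9 and Egfr 13. By mean level per kb, Erbb2 ranked 22 in controls and 10 in Ptf1a cKO mice, Erbb3 21 and 13, and Egfr 24 and 22.

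**Figure D3:**
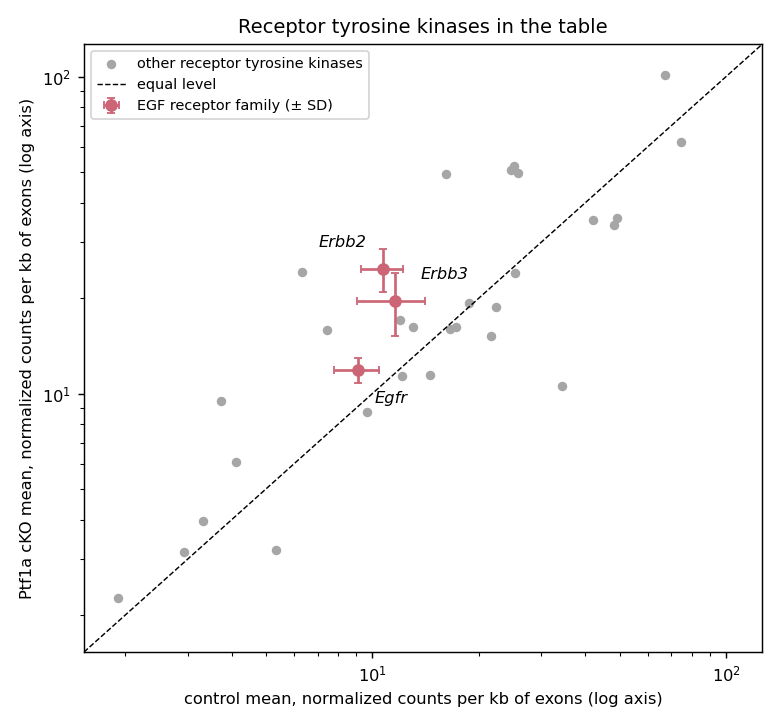
Mean normalized counts per kb of exons in control (x axis) and Ptf1a cKO (y axis) pancreas for the 32 receptor tyrosine kinases in the table, on log axes with a dashed line of equal level; the EGF receptor family has SD bars. Erbb2 lies at 10.7 and 24.8 and Erbb3 at 11.6 and 19.6, both above the line, and Egfr at 9.10 and 11.9 is nearer to it.

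Genes that act with the receptors were taken by role, from lists of 92 genes of which 79 were in the table. Together 26 were called, which is 32.9% and close to the 33.9% of all genes, with 19 higher (24.1%, against 17.1%) and 7 lower (8.86%, against 16.8%), and their median log2 fold change was 0.11 beside 0.036 over all genes. Without control 2 the count was 17. Of the 19, Lrig3, Pik3r3 and Plcg2 had every control under 27.6 normalized counts, so they were in the table only through their knockout libraries and had to differ; their values are given as a description without a test, and 16 called higher remained without them. The lists are described one by one because their called genes differ in role.

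**Figure D4:**
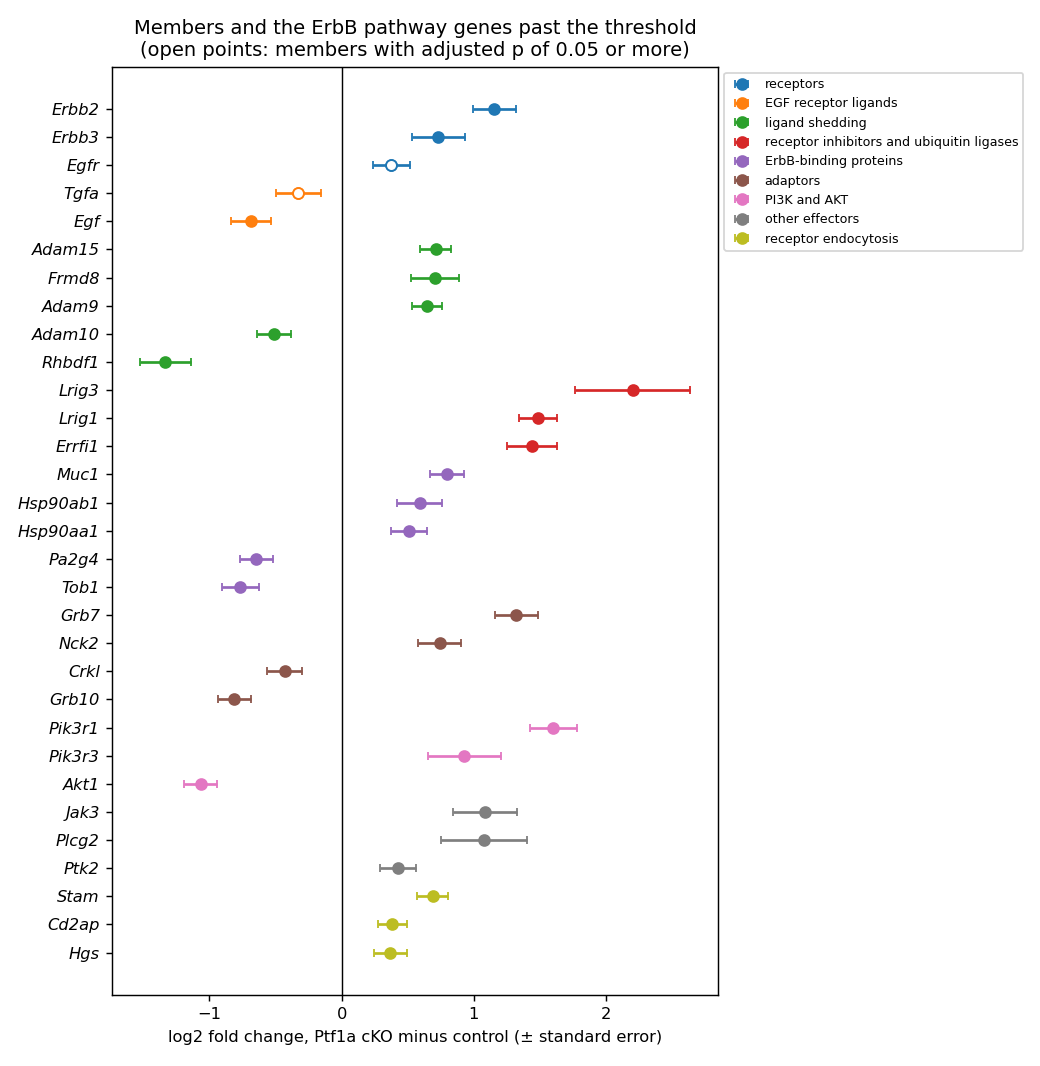
Log2 fold change (Ptf1a cKO minus control) ± standard error for the 5 members and the 26 called pathway genes, coloured by role, with open points for members not called. Pik3r1 (1.60), Lrig1 (1.49) and Errfi1 (1.44) lie far to the right beside Lrig3, which like Pik3r3 and Plcg2 was in the table only through its knockout libraries, and Rhbdf1 (-1.33) and Akt1 (-1.07) farthest to the left.

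Among receptor inhibitors and ubiquitin ligases, 3 of 12 measured genes were called higher, Lrig3 among them (25.0%, against 17.1% of all genes). Lower calls numbered 0, so 25.0% were called in either direction, against 33.9%, and the median log2 fold change was 0.17. Errfi1 (MIG6), which binds and blocks the EGFR kinase domain, was 199, 153 and 137 normalized counts in control mice 1 to 3 and 340.2, 505 and 501 in Ptf1a cKO mice 1 to 3. Its lowest knockout value was well above the highest control, and the log2 fold change was 1.44 (adjusted p = 7.10e-04 by limma). Lrig1, a transmembrane protein that promotes receptor degradation, was 272, 285 and 284 in controls and 738, 685 and 982 in Ptf1a cKO mice. Its controls were nearly equal and all knockouts were higher, with a log2 fold change of 1.49 (adjusted p = 1.86e-04 by limma). Lrig3, its relative, was 11.4, 5.96 and 2.48 in controls and 37.8, 33.0 and 49.4 in Ptf1a cKO mice. It was low in every control, and no test is given for it. Cbl, Cblb, Cblc, Lrig2, Rnf41, Socs3, Socs4, Socs5 and Stub1 were not called.

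In ligand shedding, 7 of 10 listed genes were measured (median 0.20). Of these, 3 rose (42.9%, against 17.1% of all genes) and 2 fell (28.6%, against 16.8%). The metalloproteases Adam9 and Adam15 rose by log2 fold changes of 0.64 (adjusted p = 0.00290, limma) and 0.71 (0.00222). Frmd8, which stabilizes the iRhom proteins that carry ADAM17 to the surface, rose by 0.71 (0.0172, limma). Adam10, the main protease for the EGF precursor, averaged 394 ± 36.2 in controls and 276 ± 30.2 in Ptf1a cKO mice (SD over 3 mice) and fell by 0.51 on the log2 scale (0.0140, limma). Rhbdf1, which encodes iRhom1, fell most: it was 377, 346 and 366 in controls and 111, 198 and 129 in Ptf1a cKO mice, with a log2 fold change of -1.33 (0.00111, limma) and a wide gap between the groups. Adam17, which cleaves TGF-alpha, and Rhbdf2 were not called. Frmd8 lost its call without control 2 (0.0564) and without Ptf1a cKO 3 (0.0602), and Adam10 without control 2 (0.0619) and without Ptf1a cKO 1 (0.0506). Under equal totals the log2 fold changes of Adam10 and Rhbdf1 turned to 0.97 and 0.14, as did that of Adam10 to 0.10 under equal totals without digestive enzymes.

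Of 8 measured proteins that bind ErbB receptors or their messages, 3 rose (37.5%, against 17.1% of all genes) and 2 fell (25.0%, against 16.8%). Their median was 0.10. Muc1, a membrane mucin that interacts with EGFR and is also a ductal marker, was 1835, 2037 and 1923 in controls and 3736, 3081 and 3297 in Ptf1a cKO mice. The groups were far apart, and the log2 fold change was 0.80 (adjusted p = 0.00187 by limma). The chaperone genes Hsp90aa1 and Hsp90ab1, whose product stabilizes ERBB2, rose by 0.51 (0.0185, limma) and 0.59 (0.0267). Hsp90aa1 was not called without control 2 (0.0711), Ptf1a cKO 2 (0.0536) or Ptf1a cKO 3 (0.0545), and Hsp90ab1 not without control 1 (0.116), control 2 (0.0997), Ptf1a cKO 1 (0.0542) or Ptf1a cKO 3 (0.0652). Pa2g4, the ERBB3-binding protein EBP1, fell by 0.64 on the log2 scale (0.00458, limma), and Tob1, named as a transducer of ERBB2, fell by 0.77 (0.00357). Both turned under equal totals, Pa2g4 to 0.84 and Tob1 to 0.73. Cdc37, Erbb2ip and Memo1 were not called.

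Of 14 measured adaptors, 2 rose (14.3%, against 17.1% of all genes) and 2 fell (14.3%, against 16.8%), with a median of -0.068. Grb7, an SH2 adaptor that docks on ERBB2 and ERBB3, was 128, 109 and 82.4 in controls and 246, 283 and 275 in Ptf1a cKO mice. Its groups were far apart, with a log2 fold change of 1.32 and an adjusted p of 5.18e-04 by limma. Nck2, which links receptors to the cytoskeleton, rose by 0.74 (0.00872, limma). Grb10, a relative of Grb7, fell by 0.81 on the log2 scale (0.00158, limma) and Crkl by 0.43 (0.0343). Crkl kept its call in 1 of 6 fits with a library left out, that without Ptf1a cKO 3, and had adjusted p-values of 0.0586, 0.0592 and 0.0823 without controls 1, 2 and 3 and 0.103 and 0.0715 without Ptf1a cKO 1 and 2. Under equal totals Grb10 stood at 0.67 and Crkl at 1.04, and without digestive enzymes Crkl was at 0.18. Grb2, Shc1, Sos1, Sos2, Gab1, Gab2 and the other adaptors were not called.

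In the PI3K and AKT list, 2 of 10 measured genes were called higher, Pik3r3 among them, and 1 lower (median 0.12). Pik3r1, the regulatory subunit p85-alpha, was 608, 643 and 657 in controls and 2299, 1427 and 2211 in Ptf1a cKO mice. Every knockout was well above every control, with a log2 fold change of 1.60 (adjusted p = 3.47e-04 by limma). Pik3r3, another regulatory subunit, averaged 19.6 ± 2.06 in controls and 41.6 ± 13.4 in Ptf1a cKO mice (SD over 3 mice). Akt1 was 1806, 1828 and 1778 in controls and 844, 985 and 765 in Ptf1a cKO mice. Its controls were tight and all above the knockouts, with a log2 fold change of -1.07 (4.27e-04, limma) that stood at 0.43 under equal totals. Pik3cd, the catalytic subunit common in leukocytes, was 17.2, 6.19 and 20.8 in controls and 32.4, 16.9 and 129 in Ptf1a cKO mice and was not called. Pik3ca, Pik3cb, Pik3r2, Akt2 and Pdpk1 were among the others not called.

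Among 15 other measured effectors 3 were called higher, Plcg2 among them, and 0 lower (median 0.21). That is 20.0% higher, against 17.1% of all genes, and 20.0% in either direction, against 33.9%. Jak3 rose by 1.09 (adjusted p = 0.00860, limma) and Ptk2, focal adhesion kinase, by 0.43 (0.0385). Plcg2 averaged 20.3 ± 1.59 in controls and 50.3 ± 26.3 in Ptf1a cKO mice (SD over 3 mice). Plcg2 encodes a phospholipase and Jak3 a kinase, both best known from blood cells. The call of Ptk2 was lost without controls 2 and 3 (0.0894 and 0.0977) and without Ptf1a cKO 1 and 3 (0.108 and 0.116). In receptor endocytosis, 3 of 13 rose (23.1%, against 17.1% of all genes) and 0 fell (median 0.12). Here too the 23.1% called in either direction stood beside 33.9% of all genes. Hgs and Stam, which sort ubiquitinated receptors towards lysosomes, rose by 0.37 (0.0489, limma) and 0.69 (0.00248), and Cd2ap, an adaptor of the CBL complex, by 0.38 (0.0268). Hgs lost its call in each of the 6 fits with a library left out, with adjusted p-values from 0.0586 to 0.138. Cd2ap lost it without controls 1 and 2 (0.0920 and 0.0658) and without Ptf1a cKO 1 and 3 (0.0908 and 0.0730).

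The summed RNA of cell type markers differed between the same libraries. The 15 acinar markers held 64.0% to 67.9% of the normalized counts of all genes in control libraries and 26.8% to 50.2% in Ptf1a cKO libraries, with 13 called lower (86.7%, against 16.8% of all genes). The summed normalized counts of 9 of 10 ductal markers lay between 3947 and 4797 in controls and between 25454 and 109969 in Ptf1a cKO mice. Of these, 5 were called higher (55.6%, against 17.1% of all genes). Slc4a4 and Car2 among them had every control under 27.6 normalized counts. They were in the table only through their knockout libraries and had to differ, so their calls are no test. The 5 general epithelial markers summed to between 3019.9 and 3202 and between 3681 and 4476 (3 called higher, 60.0%). In the same order of groups, fibroblast and stellate markers summed to 3058 to 3475 and 5991 to 10563 (9 of 10 called higher, 90.0%), and 9 of 12 leukocyte markers to 482 to 825 and 1269.6 to 3037 (7 called higher, 77.8%), with the highest leukocyte sum in Ptf1a cKO 3. Endothelial sums, at 722 to 933 and 763 to 969, overlapped (1 of 7 called higher, 14.3%), as did endocrine sums at 11440.2 to 42723 and 5876 to 33384 (0 of 8 called). The 3 measured proliferation markers summed to 27.7 to 102 and 109 to 496 (2 called higher, 66.7%), and 4 of 6 mesenteric fat markers to 164 to 404 and 253 to 836 (0 called). For Schwann cells, which are known to carry Erbb3, Mbp alone of 10 markers was measured, at 337 to 406 and 318 to 462. No listed marker was at 0 in all libraries. The part of these shifts in the differences of Erbb2, Erbb3, Egf and the pathway genes was not tested.

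The scaling of the libraries decided the sign of some members. The median gene stood at 0.036 with the values as deposited, at 0.63 with equal totals leaving out digestive enzymes and at 1.48 with equal totals. Relative to that median, Erbb2 was at 1.12, 1.11 and 1.10, Erbb3 at 0.69 each time, Egfr at 0.34, 0.34 and 0.35, Egf at -0.72, -0.70 and -0.67, and Tgfa at -0.36, -0.38 and -0.40. A factor per library shifts all genes nearly alike, so these relative values are close by construction and are no test of the members.

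**Figure D5:**
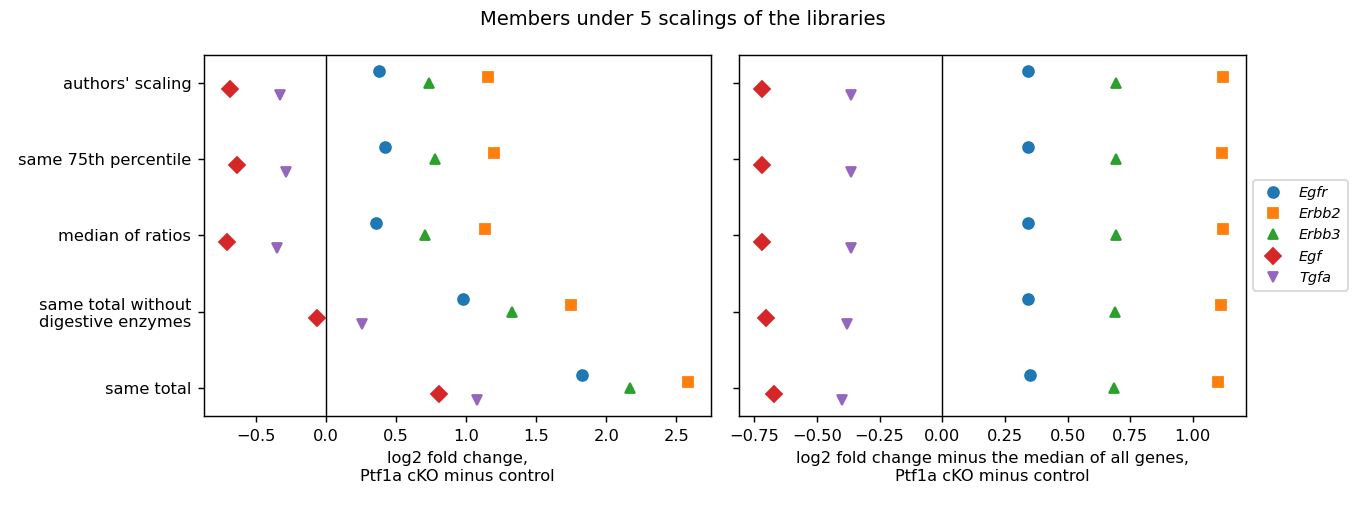
Log2 fold change (Ptf1a cKO minus control) of each member under 5 scalings of the libraries, as such (left) and after subtraction of the median of all genes (right). On the left the points move up together, Egf from -0.68 to 0.81, and on the right they hardly move, with Erbb2 between 1.10 and 1.12.

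The genes whose log2 values ran most like those of each member over the 6 libraries were listed as a description, over 6 points that fall into the 2 groups and share their scaling. For Erbb2 they began with Phactr2, Ehd1, Abhd4 and Amot (Pearson's r from 0.996 to 0.997). For Erbb3 they began with Skiv2l (0.992), Slc2a4rg-ps (0.988) and Igdcc4 (0.987), for Egfr with Penk (0.991), Trove2 (0.990) and Ubap2l (0.980), for Egf with Mfsd7a (0.998), Emc9 (0.997) and Ift20 (0.995), and for Tgfa with Itga1 (0.991), Ubr7 (0.978) and Fam187b (0.977). With the group means taken out, the closest gene to Erbb2 was Tmem175 (0.999) and that to Egfr was Ahctf1 (0.997). Each of these genes was picked as among the highest of all genes over 6 points, a choice that by itself favours values near 1. No relation was tested.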

How the data were processed

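RNA-seq libraries were made from whole pancreata of 3 control and 3 Ptf1a cKO mice. Per the study, the authors aligned reads with Tophat2 and ran edgeR with TMM normalization for differential expression. The submitters' processing notes name TopHat2 2.0.4, Bowtie 0.12.7.0, SAMtools 0.1.18.0 and HTSeq 0.6.0, and the build mm9. The authors deposited a single signal table of normalized read counts, one value per gene symbol and library. A further 3 lines without a gene name hold 75.7% to 82.6% of a library's normalized counts and entered no total or test. A date stands in place of the symbol for 17 genes. The low values share no step, so whole reads and the depth of a library could not be recovered from them. The study reports the uniquely aligned reads of each library, but not whole reads per gene in this table. No counting interval was given, and the planned count tests were not run.

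Values were divided by one factor for all libraries (13.6), and log2(value + 0.25) was tested with limma 3.58.1 in R 4.3.3 (lmFit, eBayes with a trend, no covariate, two-sided, Benjamini-Hochberg adjustment over 10245 genes). A mean of at least 0.25 after scaling was required, which removed 0 genes. The pseudocount equals 3.41 normalized counts. The fit was tested on simulated data. It called 67.4% of the 92 genes given a log2 change of 1 in either direction and 90.7% of the 108 given 2, with 8 false calls. Far fewer genes were changed there than the 33.9% called in the real comparison, so these rates need not hold for it. Smaller changes were not simulated. Other tables and plots were made with Python 3.11.15, pandas 2.3.3, scipy 1.17.1 and matplotlib 3.10.9. Gene positions and exon lengths came from GENCODE on GRCm38 by symbol, and no coordinates were converted from mm9.

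Named genes were all measured members, all called genes of the ErbB role lists, Ptf1a, and the 5 genes most correlated with each member, of which not all are printed; uncalled list genes and other receptor kinases are named in lists. Members and gene lists were chosen with earlier results of these data known. Alternatives changed the pseudocount, filter, scaling, variance model, threshold, sex covariate, replicate block and the libraries included.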

Additional observations from a re-analysis of the deposited data

How the results depend on the processing

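Across 95 alternative values of the 5 members, 83 kept their direction and call, and the 26 called pathway genes and the members were followed under 19 settings. The settings with no filter and with a required mean of at least 1 after scaling gave the main fit again, so their values had to be the same. With equal library totals the calls over all genes went from 3475 (1751 higher, 1724 lower) to 9716 (9587 higher, 129 lower), the called members to 5, all higher, and the pathway genes from 26 to 77. Egf was then at 0.81, Tgfa at 1.08 and Egfr at 1.83, Adam10 at 0.97, Akt1 at 0.43, Crkl at 1.04, Grb10 at 0.67, Pa2g4 at 0.84, Rhbdf1 at 0.14 and Tob1 at 0.73 (log2 fold change). With equal totals leaving out digestive enzymes the calls were 7306 (6852 higher, 454 lower) and 61 pathway genes, with Egf at -0.069, Tgfa at 0.25, Egfr at 0.98, Adam10 at 0.10 and Crkl at 0.18, and Grb10 (-0.20), Pa2g4 (-0.030) and Tob1 (-0.15) not called. The construction of these scalings moves the median gene; nothing else about the cause was tested. At equal 75th percentiles Egfr was called (0.42, adjusted p = 0.0474 by limma), and the median gene was at 0.081. At an adjusted p under 0.01, 1794 genes and 16 pathway genes were called, and Erbb3 (0.73) was not.

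With 1 library left out, the calls ranged from 2363 to 3601 genes, from 2 to 3 members and from 17 to 27 pathway genes. The log2 fold changes ranged from 1.09 to 1.29 for Erbb2, 0.57 to 0.89 for Erbb3, 0.27 to 0.48 for Egfr, -0.79 to -0.56 for Egf and -0.45 to -0.24 for Tgfa. A group with 2 libraries was assumed to vary like the other. Deviations from the group means correlated at 0.039, 0.13 and 0.14 between mice of equal number, and Ptf1a cKO 1 correlated best with control 2 (0.083), so the numbers were not taken as pairs. A replicate block gave 3525 calls and changed no call among the members and the 26 pathway genes (Erbb2 adjusted p = 0.00243, Erbb3 0.0204, Egf 0.00341, Egfr 0.0668 and Tgfa 0.189 by limma). With sex as a covariate Hgs (adjusted p = 0.05001 by limma) and Ptk2 (0.0529) lost their calls, and without a mean-variance trend Crkl (0.0551), Hgs (0.0738) and Ptk2 (0.0630) did. Crkl was also not called at equal 75th percentiles (0.0562) and Hgs with median-of-ratios scaling (0.0668). The paper reports the number of uniquely aligned reads of each library. Whole read counts per gene could not be recovered from the normalized values, so precision rests on 3 mice per group. The edgeR and DESeq2 alternatives were not run.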

Other observations

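The genes next to Erbb2 on chromosome 11, in RefSeq gene order and chosen after their values were seen, did not move as one. Grb7, the second gene on one side, rose with a log2 fold change of 1.32, and Pgap3, the gene on the other side, which encodes an enzyme of GPI anchor remodelling, went from 37.5 ± 3.24 to 64.5 ± 7.67 normalized counts (SD, n = 3 each; 0.73, adjusted p = 0.0112 by limma). Mien1, which lies between Erbb2 and Grb7, stood at -0.22 (0.167, limma) and Stard3 at -0.31 (0.0799), and neither was called. Ikzf3, a lymphocyte transcription factor gene, was at 1.77 with overlapping groups (0.224, limma).

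Of the genes around Erbb3 on chromosome 10, chosen in the same way, Pa2g4, which encodes a protein that binds ERBB3, lies directly beside it and fell by 0.64 on the log2 scale while Erbb3 rose by 0.73. The ribosomal protein genes Rpl41 (-0.76, adjusted p = 0.00691 by limma) and Rps26 (-0.43, 0.0334) fell as well, and Suox, sulfite oxidase, rose (0.68, 0.0160). Rpl41 and Rps26 have many near-identical processed copies, so their counts are uncertain. Rab5b, Zc3h10 and Esyt1 were not called.

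The values of Tgfa in the 3 Ptf1a cKO mice were unusually close, with a coefficient of variation of 0.162%. Only 3 genes of the table, Tgfa included, were at or below this (0.0293%), and in controls the coefficient for Tgfa was 15.6%.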
